A study of Homo sapiens with 6 samples.

Results

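Aminoacyl-tRNA synthetases are the enzymes that attach each amino acid to its tRNA, so that the ribosome can read a codon as an amino acid. Most amino acids are served by one enzyme in the cytosol and by a separate nuclear-encoded enzyme in mitochondria, and a subset of the cytosolic enzymes is held with the scaffold proteins AIMP1, AIMP2 and EEF1E1 in the multi-tRNA synthetase complex. Uncharged tRNA activates the kinase EIF2AK4 (GCN2), and the transcription factor ATF4 downstream of it is known to induce many cytosolic synthetase genes together with amino acid synthesis and transport genes. The genes described here were the protein-coding genes of the count table whose symbols name an aminoacyl-tRNA synthetase, with AIMP1 and AIMP2, which gave 40 genes among 16530 protein-coding genes and 28491 genes in all. They comprised 21 genes taken as cytosolic enzymes or subunits, 17 genes taken as mitochondrial enzymes, whose symbols end in 2, and the 2 scaffold genes. This split follows the symbols alone, so a gene whose product serves both compartments can be counted as cytosolic.

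The cells were HCT116, a human colorectal carcinoma line, transfected with a plasmid carrying RBM47, an RNA-binding protein, and harvested after 48 h (RBM47-OE, 3 libraries), or transfected with a control plasmid (NC, 3 libraries). All 6 libraries were polyadenylated RNA from this one line. The sample descriptions name the RBM47 plasmid as a 3xFlag construct in pcDNA3.1 and the medium as DMEM, whereas the published methods name another vector, another medium and another library kit, so the exact construct is uncertain. Neither source says that the 3 libraries of a group came from separate cultures, so the p-values measure the spread between these libraries, which may be technical.

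Each library held between 26792409 and 35477983 counts on genes. RBM47 itself was measured at 19.1, 23.0 and 19.2 CPM (counts relative to the library size, scaled by TMM) in NC replicates 1, 2 and 3 and at 1266, 1200 and 1201 CPM in RBM47-OE, a log2 fold change of 5.90 ± 0.096 (SE, n = 3 per group). Reads from the plasmid are included in this value. The epithelial markers EPCAM (76.3 FPKM, the mean of NC), KRT8 (538 FPKM) and KRT18 (364 FPKM) were high in these cells, while the enterocyte markers VIL1 and KRT20 were near 0 (0.06 and 0.35 FPKM). Markers of other cell types summed to 2.07 ± 0.15 FPKM in NC and 1.89 ± 0.23 FPKM in RBM47-OE (SD, n = 3). In the RBM47-OE libraries the level of a gene also fell with the GC content of its exons. Each RBM47-OE library was set against the mean of NC, and each NC library against the mean of the other NC libraries. Spearman's rho between GC content and this difference was -0.41, -0.59 and -0.67 across 16233 genes in RBM47-OE replicates 1 to 3. In NC it was -0.16, 0.13 and 0.04. A fit with an offset that removes this trend within each library (the GC offset) is therefore given wherever it changes a call.

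The synthetase genes were ordered by their level per length in NC libraries. FARSA, the catalytic alpha subunit of the phenylalanine enzyme, was highest at 61.4 ± 2.34 FPKM (SD, n = 3), followed by VARS1 (50.8 FPKM), KARS1 (46.7 FPKM), SARS1 (43.9 FPKM) and QARS1 (37.4 FPKM). The median over all 6 libraries was 23.4 FPKM for the 21 cytosolic genes and 5.30 FPKM for the 16 mitochondrial genes that passed the filter on low counts. IARS2, the mitochondrial isoleucine enzyme, stood at 34.6 ± 0.64 FPKM, above most cytosolic genes on this scale, whereas the next mitochondrial gene, HARS2, was at 12.8 FPKM. FPKM falls as the annotated length of a gene grows, so an order by CPM would differ. IARS1, with 22418 exonic bases, was at 9.74 FPKM but 253 CPM in NC, while IARS2, with 4135, was at 166 CPM. Among 39 neighbouring pairs in the FPKM order, 17 had NC ranges that overlapped, so the order within those pairs is not resolved. TARS3 (1.90 FPKM) was the lowest cytosolic gene and WARS2 (1.15 FPKM) the lowest mitochondrial gene that passed the filter.

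**Figure D1:**
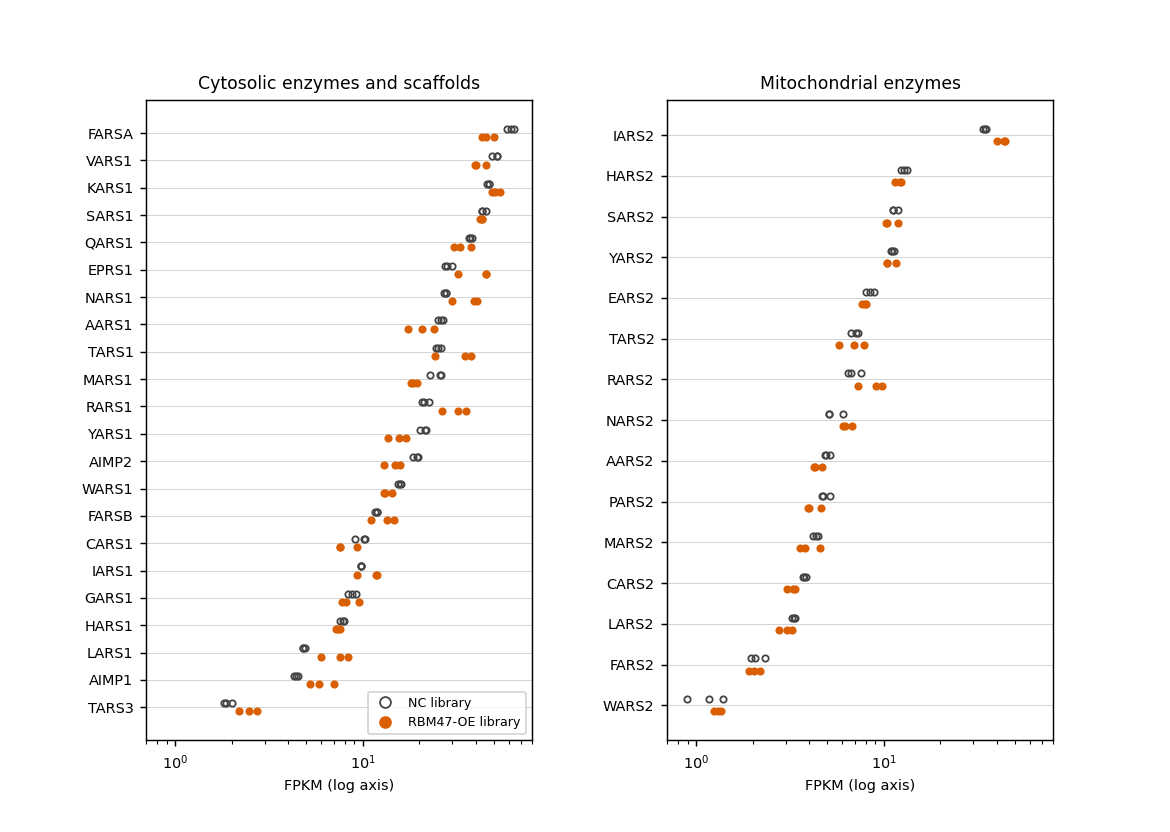
FPKM of 37 synthetase genes (horizontal log axis) in every NC library (open circles) and RBM47-OE library (filled circles), with genes in the order of their mean in NC. FARSA was highest at 61.4 FPKM in NC and IARS2 stood apart among the mitochondrial enzymes at 34.6 FPKM.

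VARS2, the mitochondrial valine enzyme on chromosome 6 (GRCh38 chr6:30914205-30926459), was the only one of the 40 genes that did not pass the filter. It held 3, 0 and 1 counts in NC and 0, 1 and 2 counts in RBM47-OE. A gene model on the same strand, ENSG00000288473 (chr6:30908242-30926459), shares 63.0% of the exonic bases of VARS2 and held 970, 1282 and 1049 counts in NC and 1154, 929 and 809 counts in RBM47-OE. Reads from bases common to both models cannot be assigned to either gene, so the level of VARS2 is uncertain and it enters no comparison.

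The comparison of RBM47-OE with NC asked how the synthetase genes responded to RBM47. Of the 39 genes tested, 23 were called at an adjusted p-value below 0.05, or 59.0% against 35.9% of all genes tested (edgeR's quasi-likelihood test, Benjamini-Hochberg adjustment over 16260 genes), and 16 did not pass. Higher in RBM47-OE were 10 genes (25.6%, against 19.1% of all genes tested), and lower were 13 (33.3%, against 16.9%). All changes were small, between -0.52 and 0.52 on the log2 scale, and 0 genes passed the study's thresholds of a p-value under 0.01 with a fold change over 1.5, which 1.51% of all genes passed upward and 0.873% passed downward. In CPM, 8 genes had every RBM47-OE library above every NC library (20.5%, against 23.2% of all genes), and 18 had each of them below (46.2%, against 23.4%). Under the GC offset, 2 genes were called higher, against 6.1% of all genes, and 10 were called lower, against 8.56% of all genes, and 9 genes kept their call and direction in both fits. Among these were LARS1 and RARS1, which were higher, and YARS1, MARS1, FARSA, AARS1, WARS1 and AIMP2, which were lower.

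**Figure D2:**
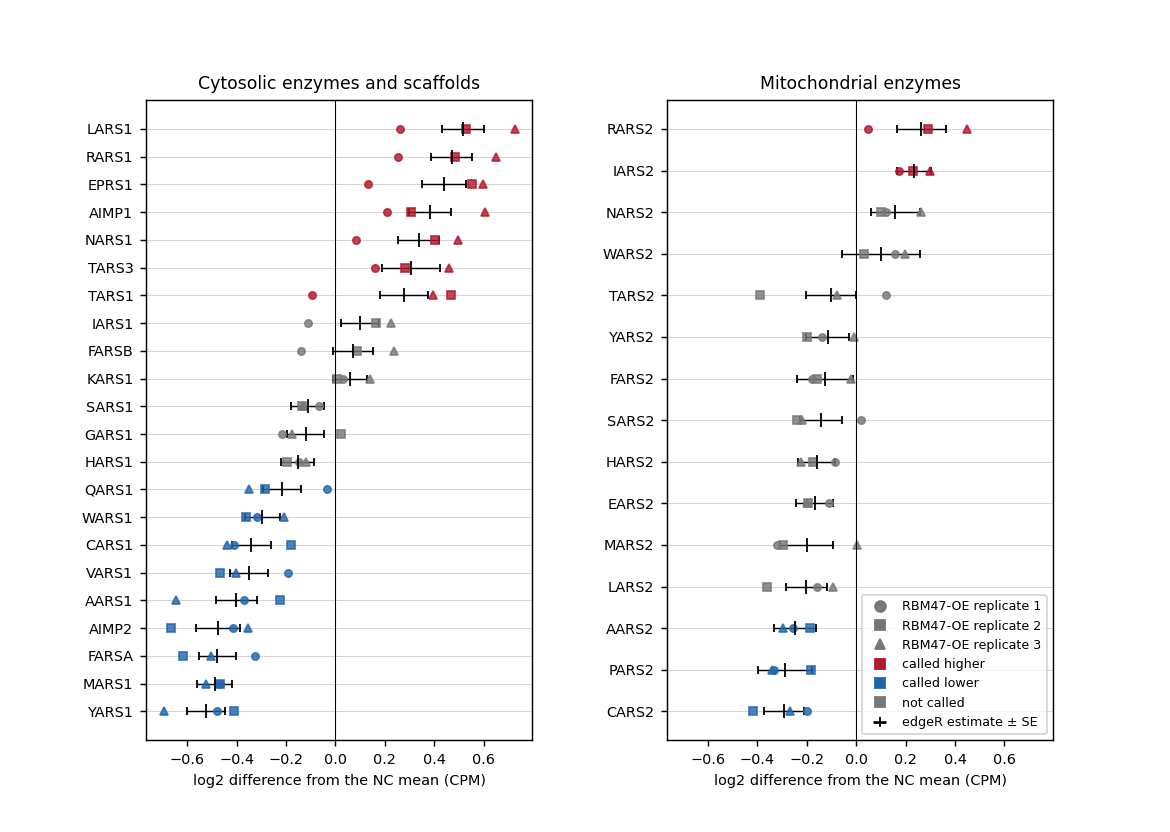
Log2 difference of each RBM47-OE library from the mean of NC in CPM (coloured points, one shape per replicate), with the edgeR estimate and its SE (black), for 37 of the 39 genes tested. Red genes were called higher (9), blue genes lower (12) and grey genes passed neither way (16).

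Among the cytosolic enzymes, 7 were higher (against 19.1% of all genes), 8 were lower (against 16.9%) and 6 did not pass. Their median log2 fold change was -0.11 beside 0.00 over all genes tested. The genes that fell are described first. YARS1, the tyrosine enzyme (chr1:32775237-32818031), was at 231, 226 and 214 CPM in NC and at 160.0, 168 and 138 CPM in RBM47-OE. All RBM47-OE libraries lay below all NC libraries, and replicate 3 was the lowest. Its log2 fold change of -0.52 ± 0.076 (SE, adjusted p = 3.8e-05) had the smallest p-value of all synthetase genes, and it was -0.48 with the GC offset. MARS1, the methionine enzyme that also charges the initiator tRNA (chr12:57475445-57517569), was at 210.2, 214 and 186 CPM in NC and at 147, 147 and 141 CPM in RBM47-OE. The groups were well apart and the RBM47-OE libraries were nearly equal (log2 fold change -0.49 ± 0.072, adjusted p = 4.1e-05). MARS1 shares 13.3% of its exonic bases with other genes, DDIT3 on the opposite strand among them, and the strand setting of the counting is not given in the sources used here.

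FARSA (chr19:12922479-12934037) was at 167, 179 and 173 CPM in NC and at 138, 113 and 122 CPM in RBM47-OE. Replicate 1 of RBM47-OE was closest to NC, but the groups did not overlap (log2 fold change -0.48 ± 0.076, adjusted p = 7.4e-05). AARS1, the alanine enzyme (chr16:70251983-70289707), was at 313, 317 and 299.9 CPM in NC and at 240.0, 265 and 198 CPM in RBM47-OE. All 3 RBM47-OE libraries were lower, with replicate 3 farthest from NC (log2 fold change -0.40 ± 0.083, adjusted p = 0.00069). WARS1, the tryptophan enzyme, which is also induced by interferon gamma (chr14:100333790-100376805), was at 117, 118 and 113 CPM in NC and at 93.0, 90.1 and 100.2 CPM in RBM47-OE. The groups did not overlap, and the change was modest (log2 fold change -0.30 ± 0.070, adjusted p = 0.0021).

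VARS1, the cytosolic valine enzyme (chr6:31777518-31795752), was at 333, 354 and 352 CPM in NC and at 303, 250.2 and 262 CPM in RBM47-OE. Replicate 1 of RBM47-OE lay nearest to NC without overlap (log2 fold change -0.35 ± 0.076, adjusted p = 0.00098). CARS1, the cysteine enzyme (chr11:3000922-3057613), was at 120.2, 117 and 105 CPM in NC and at 85.8, 100.6 and 83.9 CPM in RBM47-OE. The gap between RBM47-OE replicate 2 and NC replicate 3 was narrow (log2 fold change -0.34 ± 0.079, adjusted p = 0.0016). QARS1, the glutamine enzyme, was the last of the 8 lower genes, at -0.22 ± 0.077 (adjusted p = 0.031). After the GC offset VARS1 (-0.13, adjusted p = 0.12), CARS1 (-0.18, adjusted p = 0.087) and QARS1 (-0.04, adjusted p = 0.67) no longer passed. QARS1 kept its call only when RBM47-OE replicate 1 was the library left out, and otherwise ran to -0.15 (adjusted p = 0.15, without RBM47-OE replicate 3).

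The genes that rose included several members of the multi-tRNA synthetase complex. LARS1, the leucine enzyme, also known as a leucine sensor of the mTORC1 pathway (chr5:146110566-146182696), was at 118, 114 and 115 CPM in NC and at 139, 167 and 192 CPM in RBM47-OE. It had the largest rise among the 39 genes, with RBM47-OE replicate 1 nearest to NC (log2 fold change 0.52 ± 0.086, adjusted p = 0.00011). RARS1, the arginine enzyme (chr5:168486451-168519301), was at 90.1, 83.5 and 81.8 CPM in NC and at 101.5, 119 and 134 CPM in RBM47-OE. Again all RBM47-OE libraries were above NC and replicate 1 was nearest (log2 fold change 0.47 ± 0.083, adjusted p = 0.00018).

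EPRS1, the fused enzyme for glutamate and proline (chr1:219968600-220046530), was at 186, 169.8 and 174 CPM in NC and at 193, 259 and 267 CPM in RBM47-OE. RBM47-OE replicate 1 was barely above NC replicate 1, while the other RBM47-OE libraries were far above (log2 fold change 0.44 ± 0.089, adjusted p = 0.00059). NARS1, the asparagine enzyme, which is not in the complex (chr18:57600656-57622213), was at 133, 128 and 132 CPM in NC and at 139, 173 and 184 CPM in RBM47-OE. Here too replicate 1 stood just above the NC range (log2 fold change 0.34 ± 0.083, adjusted p = 0.0027). The threonine enzyme genes TARS1 (0.28 ± 0.096, adjusted p = 0.026, overlapping ranges) and TARS3 (0.31 ± 0.116, adjusted p = 0.040) were also among the 7 higher genes. TARS3 kept its call only when the library left out was RBM47-OE replicate 1 (lowest value 0.22, adjusted p = 0.18), and TARS1 when it was that library or NC replicate 1 (lowest value 0.17, adjusted p = 0.23).

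In all 10 genes called higher, replicate 1 was the lowest RBM47-OE library, and in 9 of them replicate 3 was the highest, the order of the GC trend in these libraries. Over all genes tested, whether rising or falling, replicate 1 was the lowest RBM47-OE library in 37.4%. The share over all genes called higher was not computed. Under the GC offset LARS1 (0.20, adjusted p = 0.026) and RARS1 (0.18, adjusted p = 0.038) remained called, while EPRS1 (0.19, adjusted p = 0.054), NARS1 (0.11, adjusted p = 0.23), TARS1 (0.12, adjusted p = 0.38) and TARS3 (0.17, adjusted p = 0.29) did not.

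Of the 6 cytosolic genes that did not pass, HARS1, the histidine enzyme (chr5:140673035-140691537), was at 129.6, 129.7 and 125 CPM in NC and at 116, 112 and 118 CPM in RBM47-OE. The groups did not overlap, but the difference of -0.15 ± 0.068 missed the threshold (adjusted p = 0.081), and with the GC offset it was -0.25 (adjusted p = 0.0036). HARS2, its mitochondrial paralogue on the opposite strand, begins inside the annotated range of HARS1 (chr5:140691430-140699305). It was at 57.5, 54.9 and 53.1 CPM in NC and at 52.0, 48.8 and 47.3 CPM in RBM47-OE, without overlap (log2 fold change -0.16 ± 0.076, adjusted p = 0.10). Reads in the part common to both genes, or alike in their paralogous sequence, could have been split between them by the counting. SARS1 (-0.11), GARS1 (-0.12), IARS1 (0.10), KARS1 (0.06) and FARSB (0.07) completed this group. With the GC offset GARS1 (-0.43, adjusted p = 0.00016) and FARSB (-0.23, adjusted p = 0.0089) were called lower.

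A sequence feature of these genes was examined because ATF4, as a dimer with C/EBP factors, binds a C/EBP-ATF response element. The letters TGATGNAA, or TTNCATCA on the other strand, were searched in promoters from RefSeq (GRCh38.p14), each of 300 bases from 250 before to 50 after the start of the gene. They were present in 1270 of 35116 promoters (3.62%) and in 7 of the 32 synthetase genes that had a promoter sequence (21.9%). The larger set was not restricted by gene type or expression, whereas each synthetase gene entered once, so these shares are over unlike sets. YARS1, LARS1, VARS1, TARS3, AARS2 and VARS2 were among the genes that had no entry. The 7 matches are shown in windows of 30 bases, 5′ to 3′ on the strand of the gene, with the matching letters in capitals. The search fixed every letter except N, so only that letter could differ between matches.
AARS1, chr16:70289675-70289704: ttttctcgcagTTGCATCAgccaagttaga
CARS1, chr11:3057407-3057436: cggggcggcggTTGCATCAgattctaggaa
IARS1, chr9:92293692-92293721: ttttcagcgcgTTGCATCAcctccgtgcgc
MARS1, chr12:57488053-57488082: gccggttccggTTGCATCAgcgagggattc
NARS1, chr18:57621804-57621833: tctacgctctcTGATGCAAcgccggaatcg
TARS1, chr5:33440956-33440985: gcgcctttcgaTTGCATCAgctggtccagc
YARS2, chr12:32756076-32756105: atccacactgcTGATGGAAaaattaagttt

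Read on the strand of TGATGNAA, the 6 cytosolic matches were TGATGCAA and that of YARS2 was TGATGGAA. Positions are counted from the RefSeq start of each promoter, which can lie inside the GENCODE gene range given above, as in AARS1 and MARS1. The match began -13, -4 and -2 bases from the start in IARS1, MARS1 and CARS1, at base 3 in TARS1, at base 15 in NARS1, and at -187 in AARS1 and -197 in YARS2. The 7 genes did not move together: AARS1, CARS1 and MARS1 were called lower, NARS1 and TARS1 were called higher, and IARS1 and YARS2 did not pass. A match in these letters does not show that a factor binds there.

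The multi-tRNA synthetase complex holds 8 of the cytosolic genes. Of these, 4 were higher (LARS1, RARS1 and EPRS1 among them), 2 were lower (MARS1 and QARS1), and IARS1 and KARS1 did not pass, with a median log2 fold change of 0.27. Of the 13 cytosolic genes outside the complex, 3 were higher and 6 were lower, with a median of -0.15 (all genes tested: 19.1% higher, 16.9% lower). The GC offset gave medians of 0.07 and -0.23. The difference between these lists was not tested.

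The scaffold genes moved in opposite directions. AIMP1 (chr4:106315544-106349456), whose protein binds RARS1 in the complex, was at 47.6, 46.2 and 48.2 CPM in NC and at 54.7, 58.6 and 72.0 CPM in RBM47-OE. All RBM47-OE libraries were higher, and replicate 3 was highest (log2 fold change 0.38 ± 0.087, adjusted p = 0.0014). AIMP2 (chr7:6009255-6023834), the scaffold that KARS1 binds, was at 39.4, 41.4 and 41.6 CPM in NC and at 30.6, 25.7 and 31.9 CPM in RBM47-OE. It was lower in every RBM47-OE library (log2 fold change -0.47 ± 0.088, adjusted p = 0.00028). EEF1E1, also called AIMP3, the third scaffold, was low and rose from 6.96, 5.52 and 7.29 CPM to 8.84, 8.96 and 10.2 CPM, without overlap (log2 fold change 0.51 ± 0.133, adjusted p = 0.0045). Within a library the log2 ratio of AIMP1 to AIMP2 was 0.21 ± 0.056 in NC and 1.07 ± 0.198 in RBM47-OE (SD, n = 3), a difference of 0.85 on CPM and of 0.46 with the GC offset. An exact two-sided permutation test gave p = 0.10, the smallest that 3 against 3 libraries allow (adjusted p = 0.15 over 15 ratios). AIMP2 remained lower with the GC offset (-0.38, adjusted p = 0.0021), while AIMP1 (0.08, adjusted p = 0.48) and EEF1E1 (0.20, adjusted p = 0.31) did not pass. AIMP2 shares 29.1% of its exonic bases with EIF2AK1 on the opposite strand.

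**Figure D3:**
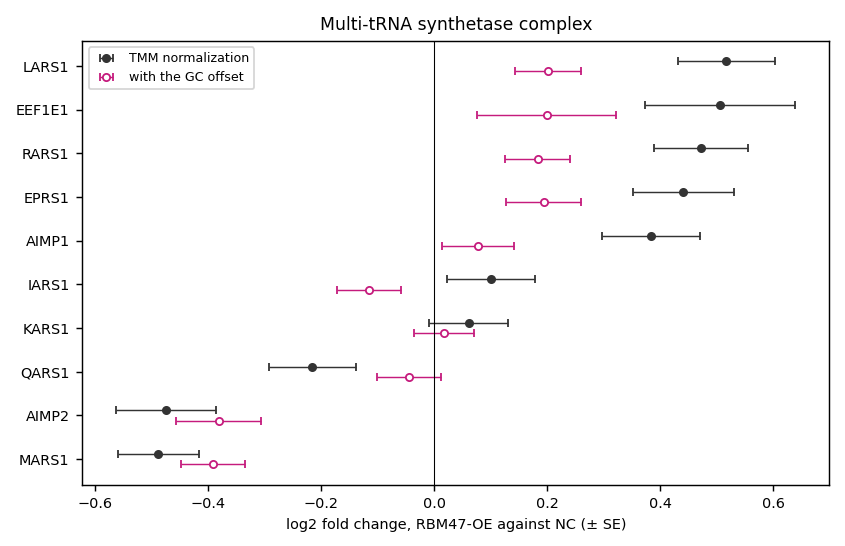
Log2 fold change with its SE for 10 of the 11 genes of the multi-tRNA synthetase complex, in the edgeR fit with TMM normalization (filled) and with the GC offset (open). MARS1 and AIMP2 were below 0 in both fits (-0.49 and -0.39, -0.47 and -0.38), and the genes above 0.3 moved toward 0 with the offset.

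The phenylalanine enzyme is built of FARSA and FARSB in equal number. The log2 ratio of FARSA to FARSB was 0.88, 0.94 and 0.89 in NC and 0.71, 0.20 and 0.16 in RBM47-OE. The ratio was lower in every RBM47-OE library, and replicate 1 was closest to NC (difference -0.54, exact permutation p = 0.10). FARSA has 61.0% GC in its exons and FARSB 40.0%, and with the GC offset the difference between their log2 fold changes was -0.03.

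Of the 16 mitochondrial enzymes tested, 2 were higher (against 19.1% of all genes), 4 were lower (against 16.9%) and 10 did not pass, and the median log2 fold change was -0.15. CARS2, the cysteine enzyme, which also makes cysteine persulfides (chr13:110641412-110713603), was at 46.6, 45.4 and 45.1 CPM in NC and at 39.8, 34.2 and 37.9 CPM in RBM47-OE. The groups did not overlap (log2 fold change -0.29 ± 0.081, adjusted p = 0.0061). IARS2 (chr1:220094132-220148041) was at 164, 166 and 169 CPM in NC and at 187, 195 and 204 CPM in RBM47-OE. The RBM47-OE libraries were above NC by a small step (log2 fold change 0.23 ± 0.069, adjusted p = 0.0096). AARS2 (-0.25, adjusted p = 0.025) and PARS2 (-0.29, adjusted p = 0.041) were also lower, and RARS2 was higher (0.26, adjusted p = 0.042) with overlapping ranges. Once the GC offset was applied, 0 mitochondrial genes were called higher and 1 was called lower, CARS2 (-0.11, adjusted p = 0.29), IARS2 (0.01, adjusted p = 0.95), AARS2 (-0.051, adjusted p = 0.70) and PARS2 (-0.13, adjusted p = 0.44) did not pass, and RARS2 turned to -0.071. The mitochondrial calls depended on single libraries: 0 were higher and 1 was lower without NC replicate 1, 1 was higher and 1 was lower without NC replicate 3, 1 was higher and 2 were lower without NC replicate 2, and 2 were higher and 8 were lower without RBM47-OE replicate 1. IARS2 missed the threshold without NC replicate 1 (0.22, adjusted p = 0.065) or NC replicate 2 (0.23, adjusted p = 0.063). AARS2 and RARS2 missed it without any of 4 libraries, and PARS2 without any of 5. CARS2 kept its call in each case. The 10 genes that did not pass ranged from -0.20 (LARS2 and MARS2) to 0.16 (NARS2).

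For 13 amino acids the cytosolic and the mitochondrial gene could be compared within each library. The log2 ratio of cytosolic to mitochondrial gene was without overlap between groups for 8 amino acids, lower in RBM47-OE for 5 and higher for 3. Among single genes, 23.2% of all tested lay above NC without overlap and 23.4% below, and no such share was computed for ratios. LARS1 over LARS2 went from 1.28, 1.26 and 1.31 in NC to 1.71, 2.17 and 2.11 in RBM47-OE. The ratio rose in every RBM47-OE library, by 0.71 on average, and the difference between the fitted changes was 0.39 with the GC offset. YARS1 over YARS2 fell by 0.41 (-0.43 with the GC offset). HARS1 over HARS2 differed by 0.01. Each ratio without overlap reached p = 0.10 in the exact permutation test, the smallest possible here, and adjusted p = 0.15 over 15 ratios.

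The cytosolic genes took 0.351, 0.346 and 0.338% of all counts in NC and 0.323, 0.363 and 0.349% in RBM47-OE. The RBM47-OE range enclosed the NC range, and the means were 0.345 ± 0.0066% and 0.345 ± 0.020% (SD, n = 3). The mitochondrial genes took 0.0630 ± 0.00074% in NC and 0.0641 ± 0.0013% in RBM47-OE. On the FPKM scale the sum of the mitochondrial genes was 126.95, 127.95 and 125.81 in NC and 129.26, 131.7 and 136.6 in RBM47-OE, higher in every RBM47-OE library. The mean of this sum went from 126.9 to 132.5, while that of IARS2 alone went from 34.6 to 42.8 FPKM. Most of the mitochondrial genes tested (12 of 16) had a negative log2 fold change with TMM. FPKM is divided by library depth and is not scaled by TMM. With library totals in place of TMM, the middle gene of all those tested stood at 0.06 on the log2 scale. It was 0.00 with TMM. The mitochondrial median was -0.091 with library totals and -0.15 with TMM. Whether the mitochondrial FPKM sum rose by more than this difference in scaling was not tested. The sum of the cytosolic genes was 508 ± 7.07 in NC and 516 ± 25.6 in RBM47-OE (SD, n = 3). Shares of this kind are relative to the RNA of each library, and bulk libraries cannot tell fewer cells from less RNA per cell.

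By structural class, the 17 class I enzymes tested had 4 higher and 7 lower genes (median -0.20) and the 19 class II enzymes 4 higher and 5 lower (median -0.12). Over all genes tested 19.1% were higher and 16.9% were lower. Among cytosolic enzymes the medians were -0.30 over 9 class I genes and 0.06 over 11 class II genes. The GC offset gave medians of -0.13 and -0.090 for these cytosolic genes, with 2 higher and 3 lower in class I and 0 higher and 5 lower in class II. With that offset 6.1% of all genes were higher and 8.56% were lower. The class difference was not tested.

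The changes of the synthetase genes ran with the GC content of their exons. Spearman's rho between GC content and log2 fold change was -0.76 over the 39 genes, -0.81 over the 21 cytosolic and -0.54 over the 16 mitochondrial genes, beside -0.63 over 16233 genes. These points share libraries and are given as a description. Of the 13 synthetase genes under 43% GC, 8 were higher and 1 was lower, with a median of 0.26 beside 0.32 for all genes in that range, of which 53.6% were called higher. Of the 14 genes with at least 50% GC, 0 were higher and 11 were lower, with a median of -0.29 beside -0.19 for all genes in that range, of which 31.3% were called lower. Among the 12 genes between, 2 were higher and 1 was lower (median -0.13, beside 0.07), where 15.8% of all genes were called higher and 7.81% lower. With the GC offset rho was -0.25 over the 39 genes, but -0.46 over the cytosolic and 0.44 over the mitochondrial genes, so the 2 parts had opposite signs. The part of GC content in the changes of single genes was not tested.

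**Figure D4:**
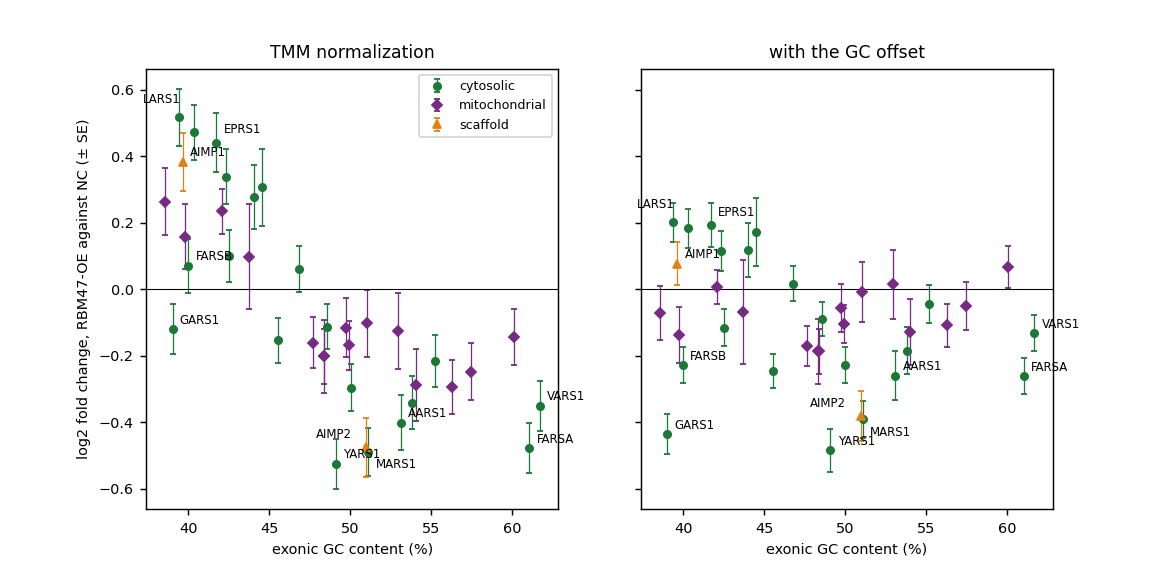
Log2 fold change with its SE against exonic GC content for 37 of the 39 synthetase genes tested, with TMM normalization (left) and with the GC offset (right), by location of the enzyme. The slope on the left (rho -0.76 over all 39) is weaker on the right (rho -0.25 over all 39, -0.46 over cytosolic and 0.44 over mitochondrial genes). YARS1, MARS1, AIMP2, FARSA, AARS1 and WARS1 are below -0.2 in both panels.

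Genes that work beside the synthetases were taken as 13 charging partners. Most of them edit, modify or export tRNA or build a charged tRNA in another way. The list also counts the scaffold EEF1E1 described above. Of the 13 genes, 5 were higher, EEF1E1 among them, and 1 was lower (median 0.25), against 19.1% and 16.9% of all genes. With the GC offset 0 were higher and 3 were lower (median -0.0018). Beside EEF1E1, QRSL1, a subunit of the mitochondrial enzyme that makes Gln-tRNA, rose from 20.1, 19.8 and 18.1 CPM to 22.5, 29.03 and 27.6 CPM (log2 fold change 0.45, adjusted p = 0.0013). SEPSECS, which makes selenocysteine on its tRNA (0.35, adjusted p = 0.042), and DTD2, which removes wrongly attached residues (0.33, adjusted p = 0.032), were also higher. None of these 4 passed with the GC offset, and EEF1E1 also missed the threshold without NC replicate 2 (0.39, adjusted p = 0.057), as did SEPSECS and DTD2 without any of 4 libraries. Of 9 translation elongation factors tested, which carry the charged tRNA to the ribosome or move it there, 2 were higher and 5 were lower (median -0.30), against 19.1% and 16.9% of all genes. With the GC offset 0 were higher and 2 were lower (median -0.092). GFM1, the mitochondrial translocase, was higher (0.50, adjusted p = 0.00092). EEF1D, a nucleotide exchange factor (-0.42, adjusted p = 0.00017), TUFM, the mitochondrial elongation factor Tu (-0.39, adjusted p = 0.00048), and EEF1A2, which delivers charged tRNA (-0.33, adjusted p = 0.0023), were lower. EEF1D (-0.20, adjusted p = 0.021) and TUFM (-0.19, adjusted p = 0.028) stayed lower with the GC offset, whereas GFM1 (0.18, adjusted p = 0.15) and EEF1A2 (-0.092, adjusted p = 0.29) did not pass.

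The amino acid response genes, which lie under ATF4 with many cytosolic synthetase genes, did not move as one group. Of 27 tested, 4 were higher and 10 were lower (median -0.18), against 19.1% and 16.9% of all genes, and 4 passed the study's thresholds. Under the GC offset 6 were higher and 6 were lower (median -0.068). ASNS, asparagine synthetase, was at 124, 126 and 113 CPM in NC and at 178, 195 and 221 CPM in RBM47-OE. All RBM47-OE libraries were above NC (log2 fold change 0.71 ± 0.079, adjusted p = 5.0e-06), also with the GC offset (0.52). ATF5, a transcription factor of the stress response, was at 18.4, 19.5 and 19.3 CPM in NC and at 11.8, 11.6 and 12.4 CPM in RBM47-OE. It fell in every library (log2 fold change -0.68 ± 0.10, adjusted p = 4.5e-05), also with the GC offset (-0.47).

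The calls of CHAC1, which degrades glutathione, and DDIT3 (CHOP), a transcription factor, rested on one library. CHAC1 was at 8.48, 7.75 and 7.23 CPM in NC and at 9.08, 52.5 and 3.93 CPM in RBM47-OE. DDIT3 was at 21.8, 20.7 and 18.6 CPM in NC and at 31.9, 74.8 and 14.7 CPM in RBM47-OE. In both genes RBM47-OE replicate 2 was far above and replicate 3 below every NC library. Their log2 fold changes of 1.49 (adjusted p = 0.012) and 0.99 (adjusted p = 0.0070) became -0.25 and 0.20 without RBM47-OE replicate 2. DESeq2 on all 6 libraries called neither CHAC1 (adjusted p = 0.23) nor DDIT3 (adjusted p = 0.20). ATF4, named here after its values were seen, showed the same order at 422, 405 and 371 CPM in NC and 347, 452 and 229 CPM in RBM47-OE, and did not pass (log2 fold change -0.22, adjusted p = 0.20). Replicate 2 was the highest RBM47-OE library in 17 of the 27 genes and replicate 3 the lowest in 20, whereas over all genes tested these shares were 29.3% and 31.1%. Among the 39 synthetase genes replicate 2 was the highest RBM47-OE library in 8 and replicate 3 the lowest in 9, so most of the 39 did not share this order. Replicate 2 was highest in 6 (46.2%) and replicate 3 lowest in 7 (53.8%) of the 13 called lower, against 1 and 0 of the 10 called higher. The GC trend was strongest in replicate 3, and these shares were not computed over all genes called lower or higher. Whether the genes called lower differ in this from other genes called lower was therefore not tested.

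**Figure D5:**
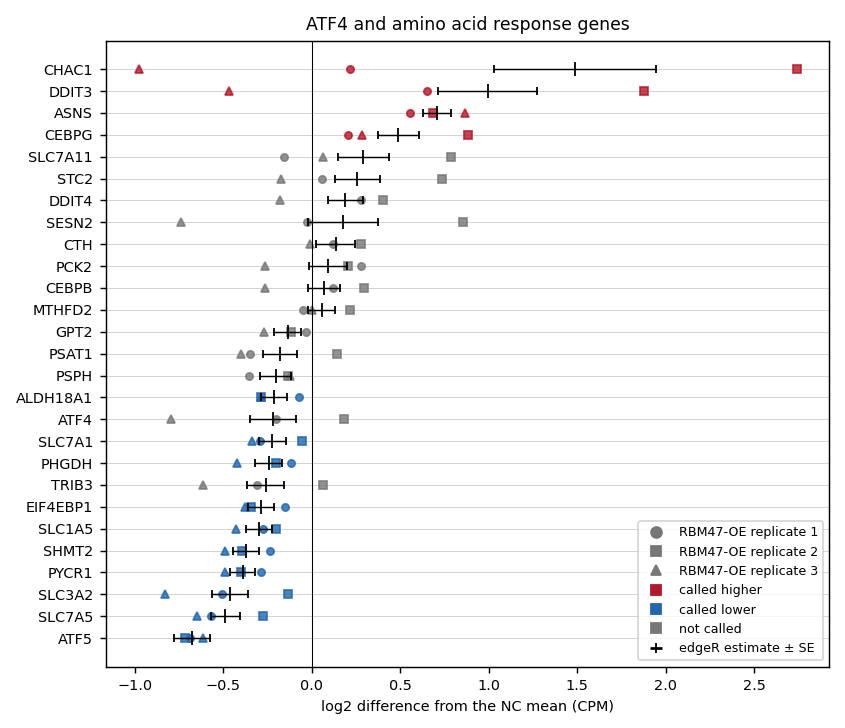
Log2 difference of each RBM47-OE library from the mean of NC in CPM for the 27 amino acid response genes tested (one shape per replicate), with the edgeR estimate and its SE. Replicate 2 (squares) lies far to the right in CHAC1 (52.5 CPM) and DDIT3 (74.8 CPM), where replicate 3 (triangles) lies left of 0, while ASNS and ATF5 hold together in all 3 replicates.

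Among 8 genes of the eIF2alpha kinase group, 3 were higher (against 19.1% of all genes) and 1 was lower (against 16.9%). EIF2AK3, the kinase of the unfolded protein response (0.35, adjusted p = 0.011), EIF2AK4, which binds uncharged tRNA (0.28, adjusted p = 0.0030), and EIF2S1, the substrate of these kinases (0.22, adjusted p = 0.029), were higher, and GCN1, the activator of EIF2AK4, was lower (-0.25, adjusted p = 0.0070). None of the 4 passed with the GC offset, where EIF2S1 was at -0.13. One left-out library ended the call of GCN1 (NC replicate 2, -0.24, adjusted p = 0.061), and 3 or 4 such libraries ended those of EIF2AK3 and EIF2S1. Of 8 interferon gamma response genes tested, set beside WARS1, 1 was higher (against 19.1% of all genes), 1 was lower (against 16.9%) and 6 did not pass. The lower gene was PSMB9, a subunit of the immunoproteasome (-0.45, adjusted p = 0.0065). PSMB9 was also lower with the GC offset (-0.47), but missed the threshold without NC replicate 2 (-0.38, adjusted p = 0.061).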

How the data were processed

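After trimming, the authors mapped reads to GRCh38 with HISAT2. They deposited uniquely mapped read counts per gene without normalization, and FPKM values, which are divided by gene length and library depth. The annotation behind the counts and its strand setting are not given in the sources used here. The deposited counts were fitted with edgeR 4.0.16 in R 4.3.3 (filterByExpr with a minimum count of 10 and a minimum total count of 15, TMM, quasi-likelihood test, condition as the only term), with p-values adjusted over 16260 genes. Each SE was derived from the log2 fold change and the square root of its F statistic, as their quotient. FPKM was used for levels between genes.

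Exonic GC content, length, coordinates and overlaps came from the GENCODE annotation of GRCh38. The GC offset is a loess curve (span 0.3) fitted in each library. Values in every library are given for genes with an adjusted p-value under 0.05 and no overlap between groups, up to 16 by smallest p, with WARS1, HARS1, HARS2, RBM47 and the genes of highest and lowest FPKM. From each companion list up to 4 called genes with the largest change are named. The members and lists were chosen with earlier results of these data known. Alternatives were DESeq2 1.42.0, RLE factors, library totals, no filter, GC and length offsets, the replicate number as a block, limma 3.58.1 on log2(FPKM + 1) and log2(FPKM + 0.1), and each library left out. The fits were tested on simulated counts. Results of some genes in these lists are not reported here.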

Additional observations from a re-analysis of the deposited data

How the results depend on the processing

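DESeq2 and RLE factors called the same 10 higher and 13 lower synthetase genes. Of the 23 called genes, 15 kept their call when any single library was left out, and 7 (YARS1, MARS1, FARSA, LARS1, RARS1, WARS1 and AIMP2) kept it under every alternative run. The GC offset left 2 higher genes, or 3 together with the replicate block, with a mitochondrial median log2 fold change of -0.088 and -0.086. Library totals, which moved the median of all genes to 0.06, gave medians of -0.051 (cytosolic) and -0.091 (mitochondrial). The length offset put 1 gene, YARS1, past the study's thresholds. limma on log2(FPKM + 1) called 7 lower genes, with medians of -0.040 (cytosolic) and -0.077 (mitochondrial), and a pseudocount of 0.1 gave 7, -0.041 and -0.083. Without a filter limma called 4 higher and 5 lower genes, with medians of -0.040 and -0.070. With one library left out in turn, 7 to 12 genes were higher and 9 to 18 lower, 0 to 1 passed the study's thresholds (LARS1, without RBM47-OE replicate 1), and the medians ran from -0.12 to -0.07 (cytosolic) and from -0.19 to -0.12 (mitochondrial). The replicate numbers did not pair the libraries: the deviations of same-numbered libraries correlated at -0.06 to -0.01, and the fit with the number as a block called 10 higher and 12 lower genes. Directions turned under the GC offset, without and with the block, for RARS2 (-0.071 and -0.068), SEPSECS (-0.0018 and -0.00056) and EIF2S1 (-0.13 and -0.14), and for CHAC1 when a library was left out, where its values ran from -0.25 to 1.98; for RARS2, SEPSECS and EIF2S1 the cause was not tested. VARS2 and the companion genes with too few counts for the filter were not tested.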
